A study of Mus musculus with 36 samples.

Results

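The RNA-seq comparison described here asked how wild-type conventional CD4+ T cells (Tconv) of the HP1g line differed when regulatory T cells (Treg) had been injected with them. It took 6 of the 36 libraries of the series, chosen by their labels alone: 3 of HP1g WT Tconv recovered with Treg and 3 of HP1g WT Tconv recovered alone. In the model, lethally irradiated hosts (C57BL/6 J, or B6 mice carrying CD45.1) received a mixture of C57BL/6 J and semi-allogeneic B6D2F1 bone marrow together with naive Tconv, with or without Treg that had been expanded ex vivo from wild-type mice carrying a Foxp3-Thy1.1 reporter. After 3 weeks, Vβ6+ Thy1.1- CD4+ T cells were sorted from the spleen. Vβ6+ cells recognise a superantigen of the allogeneic graft, so that the sort enriches for donor-specific cells. The donors were young adult male mice of a mixed 129/Sv and C57BL/6 background that were homozygous for a floxed Hp1g allele, and the WT group lacked the Cd4-cre transgene that deletes it in T cells of the KO littermates. Both groups of 3 therefore carried the floxed allele and differed by the Treg injection only, as far as the labels say. The proportion of Treg to Tconv for these libraries is not given in the sources used here. Of its HP1γ experiment the study states that, at the ratio used, the response of wild-type cells was not repressed effectively. The labels do not say whether equally treated libraries came from separate hosts, so p-values measure the spread between these samples.

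Treg restrain conventional T cells through cell contact (CTLA-4), by consuming IL-2, and by way of adenosine, IL-10 and TGF-β. Tconv that meet alloantigen in an irradiated host can become Th1 cells, which make IFN-γ under T-bet, or Th17 cells, which make IL-17. Chronically stimulated or suppressed T cells carry inhibitory receptors such as PD-1, LAG-3, TIM-3 and TIGIT together with the transcription factor TOX.

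The 6 libraries held 44937886 to 56923215 estimated counts, so that 3 counts, the floor used for undetected genes, corresponded to 0.0529 to 0.0696 CPM (counts scaled to a common library total). All 13 genes of CD4+ T cell identity were detected, and Cd4 was at 987 CPM with Treg and 990 CPM alone (means, n = 3). Trbv19, the segment that encodes Vβ6, made up 65.3% to 74.1% of all TCR β variable counts with Treg and 68.9% to 85.4% alone, against 8.73% to 9.51% in the 3 naive HP1g WT libraries. Foxp3, the master regulator of Treg, was at 4.15 ± 0.68 CPM with Treg and 4.85 ± 3.87 CPM alone (SD, n = 3). Markers of other cells were not evenly spread. The summed level of 9 erythroid and platelet genes was 4974 CPM in replicate 1 alone and 3485 CPM in replicate 1 with Treg, against 77.4 to 212 CPM in the other 4 libraries. The summed level of 14 myeloid genes was 636 CPM in replicate 1 alone and 36.7 to 193 CPM in the other 5. The part of these cells in the results below was not tested, and in bulk samples fewer cells of a type and less RNA per cell cannot be told apart.

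Few genes passed the thresholds between wild-type Tconv with and without Treg. Of 15903 genes tested with edgeR's quasi-likelihood test, 2 (0.0126%) passed an adjusted p of 0.05 with an absolute log2 fold change above 1: Scart2, which rose, and the T cell receptor α segment Trav6d-7, which was lower. An unadjusted p under 0.05 was reached by 450 genes (2.83%) that were higher with Treg and by 645 (4.06%) that were lower. All 3 libraries with Treg lay above all 3 without for 1010 genes (6.35%) and below them for 1118 (7.03%). The 95% confidence interval of the log2 fold change lay between -1 and 1 for 10389 of the 15903 genes, which is 65.33%. The median half-width of that interval was 0.47 on the log2 scale. The count rested on few libraries and on the test. DESeq2 called 42 genes (15 higher and 27 lower), Scart2 and Trav6d-7 among them, whereas edgeR called 0 when the replicate number was added as a block, with a smallest adjusted p of 0.0672. It also called 0 without any 1 of replicates 2 and 3 with Treg or replicates 1, 2 and 3 alone, and without replicate 1 with Treg it called 2 other genes, Trav12d-2 and Rnu2-10.

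**Figure D1:**
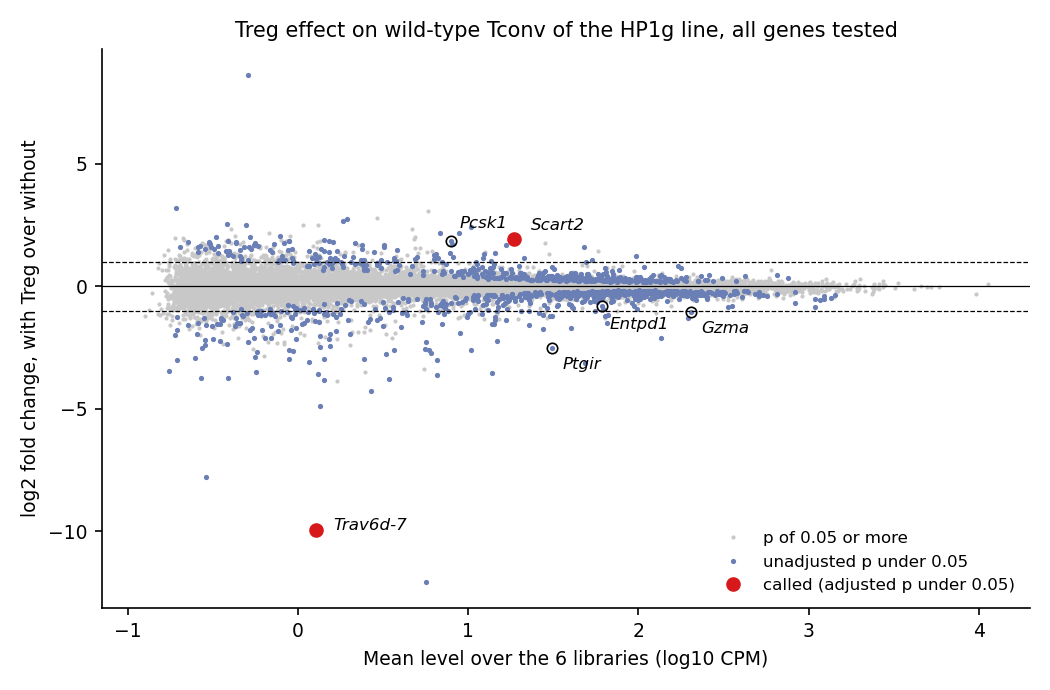
Log2 fold change (Tconv with Treg over Tconv alone, vertical axis) against the mean level over the 6 libraries (log10 CPM, horizontal axis) for 15903 genes, with genes at an unadjusted p under 0.05 in blue, the 2 called genes in red and dashed lines at -1 and 1. Most genes lie between the dashed lines, Scart2 lies at 1.93 and Trav6d-7 at -9.96.

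Scart2 encodes a scavenger receptor of the cysteine-rich family that is known from γδ T cells. The gene (ENSMUSG00000054672) lies on the plus strand of GRCm39 at chr7:139827197-139880649. With Treg its level was 30.2, 29.6 and 28.8 CPM in replicates 1 to 3, and alone it was 7.40, 9.08 and 6.71 CPM. The libraries with Treg were thus all above those without, and they differed from each other by less than the libraries without did. The log2 fold change was 1.93 (95% confidence interval 1.60 to 2.27, adjusted p = 0.0259 by edgeR), or 3.82-fold. Naive HP1g WT cells were at 0.0240 CPM on average, below the floor of 3 counts. Leaving out each library in turn gave log2 fold changes of 1.84 to 2.07, none of which passed the adjusted threshold.

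Scart2 was also looked at in 4 other Tconv groups of the series, without a call. It was at 7.33 CPM with Treg and 9.31 CPM alone in HP1a WT Tconv (n = 3 each), the wild-type littermates of the HP1a line, and at 8.59 CPM (n = 2) and 8.35 CPM (n = 3) in HP1γ-deficient Tconv. The Tconv libraries of all those groups ranged from 3.64 to 13.3 CPM, so that the 3 HP1g WT libraries with Treg stood apart. The difference between the log2 fold changes was 2.28 between the lines (95% confidence interval 1.12 to 3.44, edgeR adjusted p = 0.0552). Between the genotypes it was 1.90 (1.09 to 2.71, edgeR adjusted p = 0.999956). Neither passed the threshold. For the other γδ T cell markers the groups overlapped. The summed level of 8 of them was 61.5, 102 and 35.6 CPM with Treg and 54.0, 44.8 and 99.3 CPM alone. Trdc, the constant segment of the δ chain, was at 3.08 CPM with Treg and 1.98 CPM alone, and Scart1, the related receptor, at 5.39 and 4.10 CPM.

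Trav6d-7 belongs to a locus that was duplicated in mice, and the sequences show which segments can be told apart. The α variable segments Trav6d-7 (chr14:53245069-53245555) and Trav6n-7 (chr14:53556255-53556741) have annotated transcripts that are identical over all 358 bases, and Trav6-7-dv9 (chr14:53947359-53947876) differs from them at 6 positions (all on the plus strand, GRCm39). The last 200 bases of each transcript, from the GENCODE transcript set, are shown, with capitals where Trav6-7-dv9 differs from Trav6d-7.
Trav6d-7: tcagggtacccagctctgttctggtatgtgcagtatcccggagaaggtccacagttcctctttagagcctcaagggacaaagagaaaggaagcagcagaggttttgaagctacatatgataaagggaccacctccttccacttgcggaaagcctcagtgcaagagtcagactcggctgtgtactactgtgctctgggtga
Trav6n-7: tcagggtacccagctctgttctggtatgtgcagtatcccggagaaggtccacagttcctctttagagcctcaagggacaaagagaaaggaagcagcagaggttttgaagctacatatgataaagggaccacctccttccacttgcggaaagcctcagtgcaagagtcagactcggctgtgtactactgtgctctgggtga
Trav6-7-dv9: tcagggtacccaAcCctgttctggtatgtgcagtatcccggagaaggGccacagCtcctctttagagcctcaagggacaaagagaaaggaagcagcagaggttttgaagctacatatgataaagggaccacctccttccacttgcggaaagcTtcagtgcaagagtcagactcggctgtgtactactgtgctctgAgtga

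Trav6d-7 was listed with 0 counts in all 3 libraries with Treg and with 134, 104 and 127 estimated counts in the libraries without. The mean level without Treg was 2.56 CPM, at least 36.8-fold higher than 3 counts in any library with Treg, and edgeR gave an adjusted p of 0.0445. Its twin Trav6n-7 showed the mirror image, with 119, 68 and 152 counts with Treg and 58, 0 and 0 without. The sum of both segments was 119, 68 and 152 counts with Treg and 193, 104 and 127 counts without, and the groups overlapped. The summed log2 fold change was -0.40 (95% confidence interval -1.14 to 0.34), with an edgeR adjusted p of 0.843. Reads of identical segments were divided by Salmon, and in 17 of the 26 libraries of the HP1g line and of HP1a WT 1 of the 2 segments was at 0 while the other held counts. With all genes of identical transcripts summed, Scart2 was the 1 gene called. Among 89 Trav segments tested, 3 were higher and 7 lower at an unadjusted p under 0.05, and of 20 Trbv segments 4 were higher and 0 lower. The shares over all genes were 2.83% higher and 4.06% lower.

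Of the other 12 Trav6 segments named, none was called by edgeR in the comparison. Trav6-3 had the smallest adjusted p with the lowest log2 fold change (-1.96, adjusted p = 0.694), and Trav6d-6 and Trav6n-6 the highest after Trav6n-7 at 2.51 (1.94 and 1.84). Trav6d-4 was at -1.39, Trav6d-3 at -0.99, Trav6-2 at -0.50, Trav6-7-dv9 at -0.35, Trav6d-5 at -0.29, Trav6-4 at -0.22, Trav6-5 at 0.19 and Trav6-6 at 1.28 on the log2 scale. Of 130 annotated Trav segments 34 share an identical transcript with another gene. With identical transcripts summed, Trav6d-6 and Trav6-6 both had the value 1.61, so their separate values depend on how reads were divided.

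**Figure D2:**
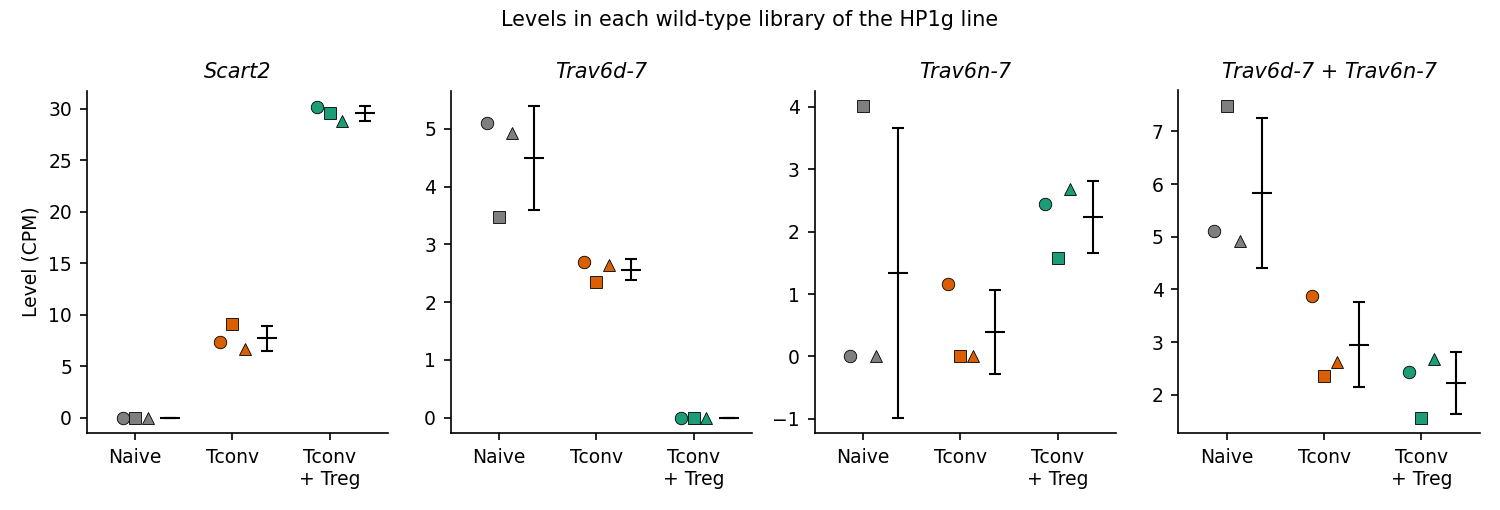
Levels (CPM, vertical axes) of Scart2, Trav6d-7, Trav6n-7 and the sum of these Trav segments in each naive, Tconv and Tconv with Treg library of HP1g WT, with circles, squares and triangles for replicates 1 to 3 and black bars for the mean ± SD (n = 3). Scart2 is above 28 CPM in each library with Treg and below 10 CPM in each without, whereas the sum of the twin segments overlaps between them.

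With Scart2 included, 41 genes with established names and a mean level of 5 CPM or more had an absolute log2 fold change above 1 and no overlap between the groups. Of these, 16 were higher and 25 lower with Treg. The 8 with the smallest p in each direction are described here, none of which apart from Scart2 passed the test by edgeR (adjusted p = 0.694 for each of the other 15). No overlap was a condition of this choice, so the separation of their groups is not a further result. DESeq2 called all 16, with adjusted p from 3.38e-08 to 0.0239 for those other than Scart2.

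Among genes with higher values were 2 cytokines of helper cells. Il21, whose product acts on B cells and Tfh cells, was at 38.9, 14.5 and 22.5 CPM with Treg and 7.42, 5.26 and 10.7 CPM alone. Il22, which encodes a cytokine that acts on epithelia, was at 16.5, 16.9 and 19.8 CPM with Treg and 10.7, 3.997 and 6.69 CPM alone. As the choice required, the groups did not overlap for either, and the log2 fold changes were 1.70 (95% confidence interval 0.69 to 2.71) and 1.32 (0.53 to 2.10). Pcsk1, a prohormone convertase, was at 17.5, 6.50 and 13.1 CPM with Treg and at 3.76, 3.34 and 3.22 CPM alone. Its log2 fold change was 1.85. Spry1, an inhibitor of receptor kinase signalling, was at 41.4, 25.3 and 21.8 CPM with Treg and 11.9, 12.6 and 15.2 CPM alone, a log2 fold change of 1.16. Cep290, a protein of the cilium base, had a log2 fold change of 1.001 and levels of 7.33 to 11.7 CPM against 3.88 to 5.57 CPM.

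H2-Ob and Dapl1 had higher levels in the naive libraries than in either Tconv group. H2-Ob encodes a chain of H2-O, which regulates peptide loading of MHC class II in B cells. It was at 15.7, 8.38 and 9.57 CPM with Treg and 5.59, 3.97 and 3.51 CPM alone, and at 72.0 CPM in naive HP1g WT cells. The summed level of 10 B cell markers was 174, 132 and 244 CPM with Treg and 108, 150 and 98.5 CPM alone, so it overlapped between the groups. In the naive HP1g WT libraries that sum was 581 to 902 CPM. Of the 5 B cell markers tested 4 had a log2 fold change above 0. Igkc, the κ constant segment of immunoglobulin, was at 10.4, 5.69 and 17.3 CPM with Treg and 1.41, 2.12 and 3.904 CPM alone, without overlap (log2 fold change 2.17, adjusted p = 0.694 by edgeR and 0.00215 by DESeq2). Cd79a and Cd79b, subunits of the B cell receptor, were at 0.273 and 1.002 CPM with Treg and at 0.255 and 1.10 CPM alone. The part of B cells in the values of H2-Ob was not tested. Dapl1 was at 11.4, 10.1 and 15.3 CPM with Treg, 5.59, 4.02 and 1.60 CPM alone and 292 CPM in naive cells. By the rule of choice the libraries with Treg were above those without for H2-Ob and Dapl1, at log2 fold changes of 1.36 and 1.72.

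The genes with lower values included receptors and an effector protease. Gzma encodes granzyme A, a protease of cytotoxic granules. It was at 122, 175 and 99.6 CPM with Treg and at 314, 237 and 269 CPM alone. The groups did not overlap, as for all genes chosen here, and the log2 fold change was -1.05 (95% confidence interval -1.55 to -0.55). Ptgir, the prostacyclin receptor, was at 6.41, 8.68 and 12.4 CPM with Treg and 76.4, 56.1 and 25.4 CPM alone, a log2 fold change of -2.52 (-3.66 to -1.37). Ccr1, a receptor for inflammatory chemokines, was at 3.07, 5.08 and 3.14 CPM with Treg and 6.99, 24.1 and 11.2 CPM alone, a log2 fold change of -1.91 that was -1.27 without replicate 2 alone. These 2 receptors were chosen for no overlap between the groups but spread over more than 2-fold among the libraries without Treg.

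Epas1, which encodes the hypoxia-inducible factor HIF-2α, was at 7.33, 13.3 and 13.6 CPM with Treg and 29.1, 50.7 and 23.1 CPM alone (log2 fold change -1.59). The potassium channel genes Kcnj8 and Kcnq5 had log2 fold changes of -1.16 and -1.54. Kcnj8 ranged from 12.3 to 22.05 CPM with Treg and from 30.5 to 46.9 CPM alone. The RNA-binding protein gene Rbm47 was at -1.45, and Mir6236 at -1.002. By the same rule of choice, no library with Treg reached the level of a library without for any of these 5 genes.

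**Figure D3:**
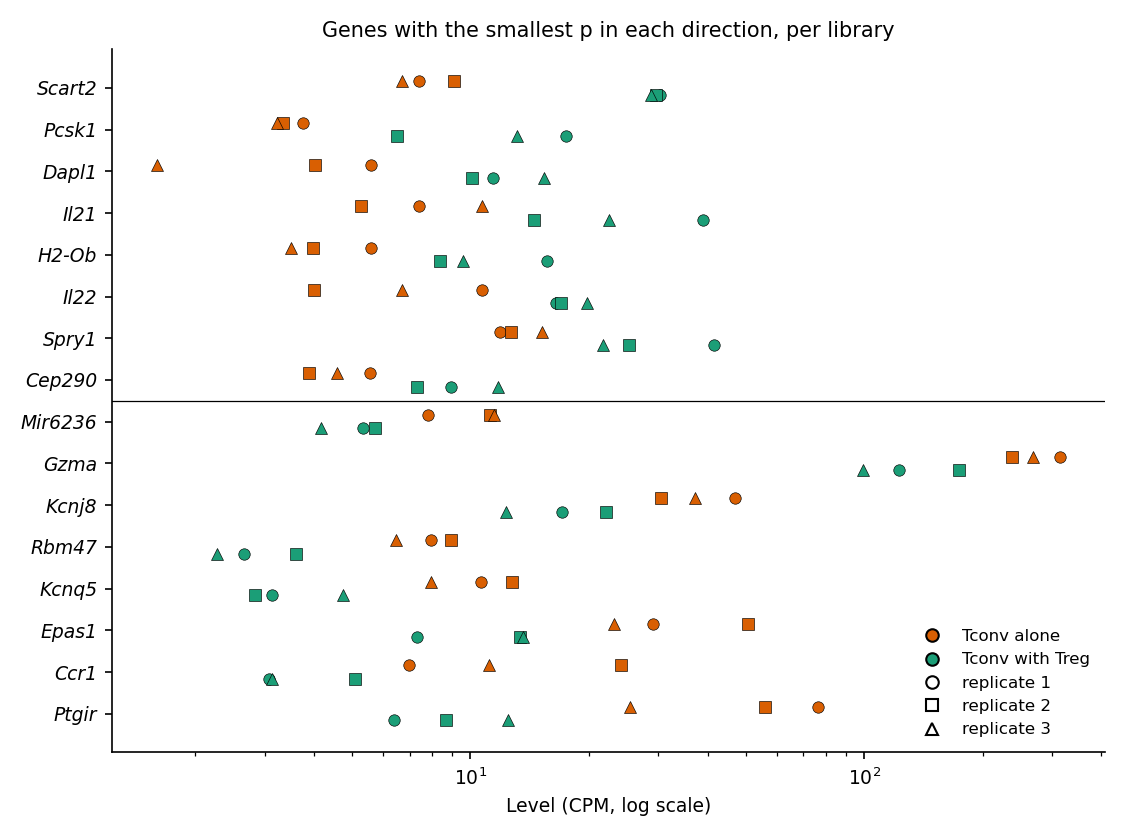
Levels (CPM, logarithmic horizontal axis) of the 16 genes with the smallest p in each direction, by library, for Tconv with Treg (green) and Tconv alone (orange), with the marker shape giving the replicate number. The 16 genes were chosen for having no overlap between the groups, and Gzma at 99.6 to 314 CPM is the most abundant of them.

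The 21 genes the study names for function, exhaustion and the HP1 proteins were not called by edgeR, and DESeq2 called none of them. Of these 21, 13 had a log2 fold change above 0, and at an unadjusted p under 0.05 3 were higher and 1 lower, against 2.83% and 4.06% of all genes. Ctla4, the inhibitory receptor that competes for CD80 and CD86, was at 285, 169 and 218 CPM with Treg and 143, 158 and 99.2 CPM alone. Tox was at 115, 58.2 and 45.0 CPM with Treg and 30.4, 29.5 and 44.0 CPM alone. The groups did not overlap for either gene, and the log2 fold changes were 0.75 (95% confidence interval 0.17 to 1.33) and 1.07 (0.14 to 2.002) with an edgeR adjusted p of 0.694 for both. Without replicate 1 with Treg, Tox was at 0.57.

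Among the inhibitory receptors, Pdcd1 (PD-1) was at 86.3, 60.8 and 32.7 CPM with Treg and 18.3, 26.4 and 53.5 CPM alone. Lag3 was at 7.45, 3.11 and 2.61 CPM with Treg and 0.884, 1.15 and 3.18 CPM alone. The groups overlapped in replicate 3 for both genes, and the log2 fold changes of 0.87 (-0.38 to 2.13) and 1.34 (-0.11 to 2.78) had intervals that included 0. Without replicate 1 with Treg they were 0.51 and 0.72, and without replicate 3 alone 1.42 and 2.11. Havcr2 (TIM-3) was at -0.43 (-1.15 to 0.28) and Tigit at 0.24 (-0.39 to 0.87). Entpd1, the ectonucleotidase CD39, which degrades extracellular ATP, was the member of the list of inhibitory receptors with the smallest p. It was at 46.2, 47.3 and 39.3 CPM with Treg and 80.7, 79.8 and 71.5 CPM alone, and the groups did not overlap. Its log2 fold change of -0.81 (-1.04 to -0.57) had an edgeR adjusted p of 0.216 and was below the fold threshold. Nt5e (CD73), which acts after CD39 in making adenosine, was at 0.83 (-0.15 to 1.81), and Izumo1r (FR4) at 0.82 (-0.22 to 1.87).

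Effector cytokines had no common direction. Ifng was at 597, 664 and 399 CPM with Treg and 433, 553 and 564 CPM alone, a log2 fold change of 0.10 (95% confidence interval -0.37 to 0.56). Tbx21 (T-bet) was at 248, 351 and 210 CPM with Treg and 230, 351 and 368 CPM alone, at -0.23 (-0.81 to 0.35). For both the groups overlapped and the interval lay between -1 and 1. Csf2, which encodes GM-CSF, was at 11.8, 30.9 and 13.4 CPM with Treg and 27.0, 115 and 42.3 CPM alone, with a log2 fold change of -1.72 (-3.35 to -0.09) and an adjusted p of 0.718 by edgeR. The groups overlapped, and without replicate 2 of Tconv alone the log2 fold change was -0.89. Csf2 was lower with Treg at each of the 3 replicate numbers, but the labels do not give pairs. Il17a was at 0.64 (-0.88 to 2.16), Il2 at 0.13 (-0.75 to 1.02), Tnf at 0.09 (-0.52 to 0.70) and Il10 at 1.37 (-0.68 to 3.43). Il10 was at 15.9 CPM in replicate 1 with Treg and at 1.45 to 4.64 CPM in the other 5 libraries, and without that library the log2 fold change was 0.10.

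Foxp3, Il2ra, the α chain of the IL-2 receptor, and the early activation marker Cd69 had log2 fold changes of -0.22, -0.51 and -0.11, each with an interval that included 0. Cbx3 and Cbx5, the genes of HP1γ and HP1α, were at -0.09 (-0.40 to 0.21) and -0.06 (-0.71 to 0.59).

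**Figure D4:**
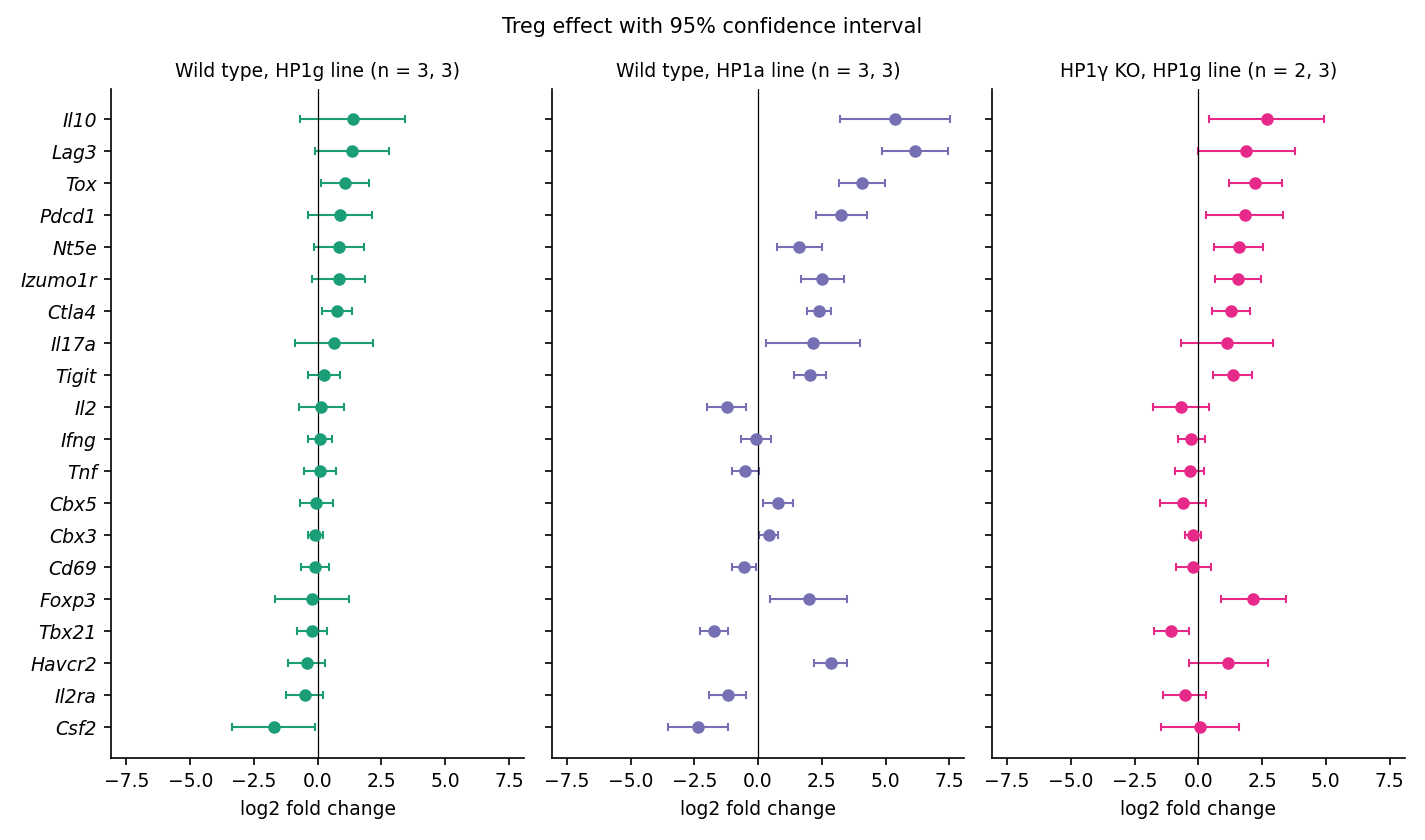
Log2 fold change with Treg (horizontal axes) and its 95% confidence interval for 20 of these genes in HP1g WT Tconv (left), HP1a WT Tconv (middle) and HP1γ-deficient Tconv (right). The left panel is from the edgeR fit of its own libraries. The middle and right panels are from the fits of the line and genotype differences, which include the HP1g WT libraries. In HP1g WT the values run from -1.72 (Csf2) to 1.37 (Il10), and the intervals of Ctla4, Tox and Csf2 leave out 0.

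A total of 31 gene lists, with 544 different members tested, were followed as groups. Of these members 1 was called by edgeR (Scart2) and 6 by DESeq2 (Scart2, Il21, Il22, Dapl1, Gzma and Igkc), while 39 were higher and 37 lower at an unadjusted p under 0.05, against 2.83% and 4.06% of all genes. The median log2 fold change over all 15903 genes was -0.00, with 7915 genes above and 7988 below 0. Over the lists the median is given as a description.

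Lists of helper programmes lay on either side of 0. All 10 Tfh genes tested had a log2 fold change above 0 with a median of 0.81, 3 of them (Il21, Slamf6 and Cd200) at an unadjusted p under 0.05 and without overlap (over all genes 2.83% were higher at that p and 6.35% were higher without overlap), and Bcl6, the factor that defines Tfh cells, had the lowest value (0.12). Of 12 Th17 genes 9 were above 0 with a median of 0.74, and 4 were higher, Rora, Il22 and Il21 among them, and 0 lower at an unadjusted p under 0.05. Il17f had the highest value (1.81, and 4.22 without replicate 1 alone), Il1r1 the lowest (-0.25) and Rora, a nuclear receptor of Th17 cells, the smallest p. Rora was at 272, 323 and 303 CPM with Treg and 206, 218 and 232 CPM alone. All libraries with Treg were above those without, at a log2 fold change of 0.45 (95% confidence interval 0.24 to 0.67, edgeR adjusted p = 0.694). Il21 is in both lists.

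Of 9 Th2 genes 8 were below 0, with a median of -0.84 and 2 (Gata3 and Il1rl1) lower at an unadjusted p under 0.05. For this and the Th1 lists, the shares over all genes were 2.83% higher and 4.06% lower. Gata3, the factor that defines Th2 cells, was at 201, 299 and 222 CPM with Treg and 565, 438 and 284 CPM alone. Replicate 3 alone lay within the range of the libraries with Treg, and the log2 fold change was -0.84 (-1.49 to -0.19). Gata3 was lower with Treg at each of the 3 replicate numbers, but the labels do not give pairs. Il5 was lowest at -1.94 (-4.30 without replicate 3 with Treg) and Ccr8 highest at 0.09. Of 18 Th1 genes 8 were above and 10 below 0, with a median of -0.11, 1 higher (Lta) and 2 lower (Runx3 and Ly6c2) at an unadjusted p under 0.05. Lta, which encodes lymphotoxin α, was at 0.79 and Ly6c2 at -0.79. The 72 tested members of the study's own Th1 list had a median of -0.05, with 2 higher and 7 lower, and ran from Mmp9 (-2.13) to Prg4 (1.40). Cxcl10, an interferon-induced chemokine, had its smallest p, at 0.53.

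Of 97 genes of the study's exhaustion list 7 were higher and 6 lower at an unadjusted p under 0.05, and the median was 0.09. For this and the next 2 lists the shares over all genes were 2.83% higher and 4.06% lower. Ptpn5 was highest (1.83), Cpa3 lowest (-2.99, at under 1 CPM), and Entpd1 had the smallest p. The 14 inhibitory receptors had a median of 0.05, with 2 higher (Btla and Ctla4) and 2 lower (Entpd1 and Pdcd1lg2). The 12 anergy genes had a median of 0.03, with 1 higher and 2 lower, from Ndrg1 (-1.36) to Lag3 (1.34). A further list holds genes chosen by the study for both higher expression and greater accessibility in HP1γ-deficient than in WT Tconv with Treg. Of 131 of them tested, 19 were higher and 5 lower at an unadjusted p under 0.05, against 2.83% and 4.06% of all genes, with a median of 0.35. That list was chosen on libraries that include the 3 HP1g WT libraries with Treg, so it is not independent evidence of a direction. Lpar3 had its smallest p (2.04), Igkc the highest value (2.17) and Stc2 the lowest (-1.62).

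For 12 Treg signature genes the median was -0.13, and the values ran from Itgae (-3.13) to Il10 (1.37). Itgae, the αE integrin CD103, was at 7.02, 10.1 and 12.6 CPM with Treg and 184, 69.7 and 6.96 CPM alone, so that replicate 3 alone matched the libraries with Treg. Without replicate 1 alone the log2 fold change was -1.95. Gpr83 had the smallest p of this list (1.06). Of 14 naive and memory genes 3 were higher (Dapl1, Tcf7 and Ccr7) and 0 lower at an unadjusted p under 0.05, against 2.83% and 4.06% of all genes. Their median was 0.06, and Satb1 was lowest (-0.58). Of 13 cytotoxic genes 10 were below 0 with a median of -0.22, from Gzma (-1.05) to Ccl3 (0.56). The 14 effector cytokines had a median of 0.19, with 3 higher (Lta, Il22 and Il21) and 3 lower (Osm, Csf2 and Lif).

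Signalling lists stayed near 0 in the median. Counts of members here are at an unadjusted p under 0.05, which 2.83% of all genes reached with higher and 4.06% with lower values. The 17 factors induced by the T cell receptor had a median of -0.20, with 1 higher (Tox) and 3 lower (Egr3, Egr1 and Fos). Egr3 was at 5.94, 3.83 and 7.69 CPM with Treg and 21.7, 11.04 and 8.51 CPM alone, a log2 fold change of -1.24 (95% confidence interval -2.21 to -0.26), and of -0.74 without replicate 1 alone. For the 16 genes of the IL-2 receptor and STAT5 the median was -0.12, with 0 higher and 2 lower, Il2rb (-0.48) and Socs1, and Socs3 (0.26) and Socs2 (-0.79) at the ends. For the 16 genes of the TGF-β pathway the median was -0.07, with 0 higher and 3 lower, Smad3 (-0.50), Tgfb1 and Itgae, and Ltbp3 (0.64) highest. The 10 costimulatory receptors had a median of -0.04, from Tnfrsf4 (-0.35) to Cd27 (0.64), and Tnfrsf18 (GITR) had the smallest p (-0.22). For 9 of these 10 the 95% confidence interval lay between -1 and 1, against 65.33% of all genes. The 21 chemokine receptors and integrins had a median of -0.14, from Itgae to Itgb8 (2.03, and -0.069 without replicate 1 with Treg), with 1 higher and 1 lower.

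The medians of the metabolic, cell division, interferon, chromatin and CD4+ T cell identity lists ran from -0.16 to 0.25. Over all genes 7915 had a log2 fold change above and 7988 below 0. An unadjusted p under 0.05 was reached by 2.83% of all genes with higher and 4.06% with lower values. All 16 glycolysis genes were below 0 with a median of -0.16, from Slc16a3 (-0.55) to Pgam1 (-0.02), and 1 of them, Slc2a3 (-0.53), reached an unadjusted p under 0.05. Of 18 mitosis genes 17 were above 0 with a median of 0.25, yet none reached it and none had an interval between -1 and 1. Cenpf was highest (0.54), Ccnb2 lowest (-0.05) and Aurka had the smallest p (0.36). Of 18 DNA replication genes 16 were above 0 with a median of 0.10, from Rrm1 (-0.03) to Prim1 (0.35), and Pcna (0.24) was the 1 at an unadjusted p under 0.05. The 18 type I interferon genes had a median of -0.05, from Ifit3 (-0.67) to Irf9 (0.16), with Oas3 (-0.61) the 1 lower. The 14 genes of HP1 and H3K9 methylation, from Tasor (-0.16) to Suv39h2 (0.35), all had intervals between -1 and 1, against 65.33% of all genes. The same held for 10 of 12 DNA methylation genes, from Zbtb38 (-0.20) to Tet1 (0.16), and for all 13 genes of CD4+ T cell identity, from Zbtb7b (-0.20) to Cd247 (0.30).

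Among markers of other cells edgeR called Scart2 only, and DESeq2 called Scart2 and Igkc. Of 7 γδ T cell markers tested Sox13 was lowest (-2.84), and it was at -0.11 without replicate 1 of Tconv alone, the library with the high myeloid and erythroid sums. The 5 CD8 T and NK cell markers ran from Cd8a (-2.34, and -5.63 without replicate 2 with Treg) to Eomes (0.46), and Klrb1c had the smallest p (-0.93). The 5 B cell markers ran from Cd79b (-0.13) to Igkc. The 12 myeloid markers ran from Ngp (-0.89) to Adgre1 (0.72), with Itgam at -0.39, and the 8 erythroid and platelet markers from Ppbp (-2.99) to Car1 (-0.23). The 95% confidence intervals of Ngp (-5.85 to 4.06) and Car1 (-5.75 to 5.29) included 0, and these genes belong to the lists whose sums were high in replicate 1.

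**Figure D5:**
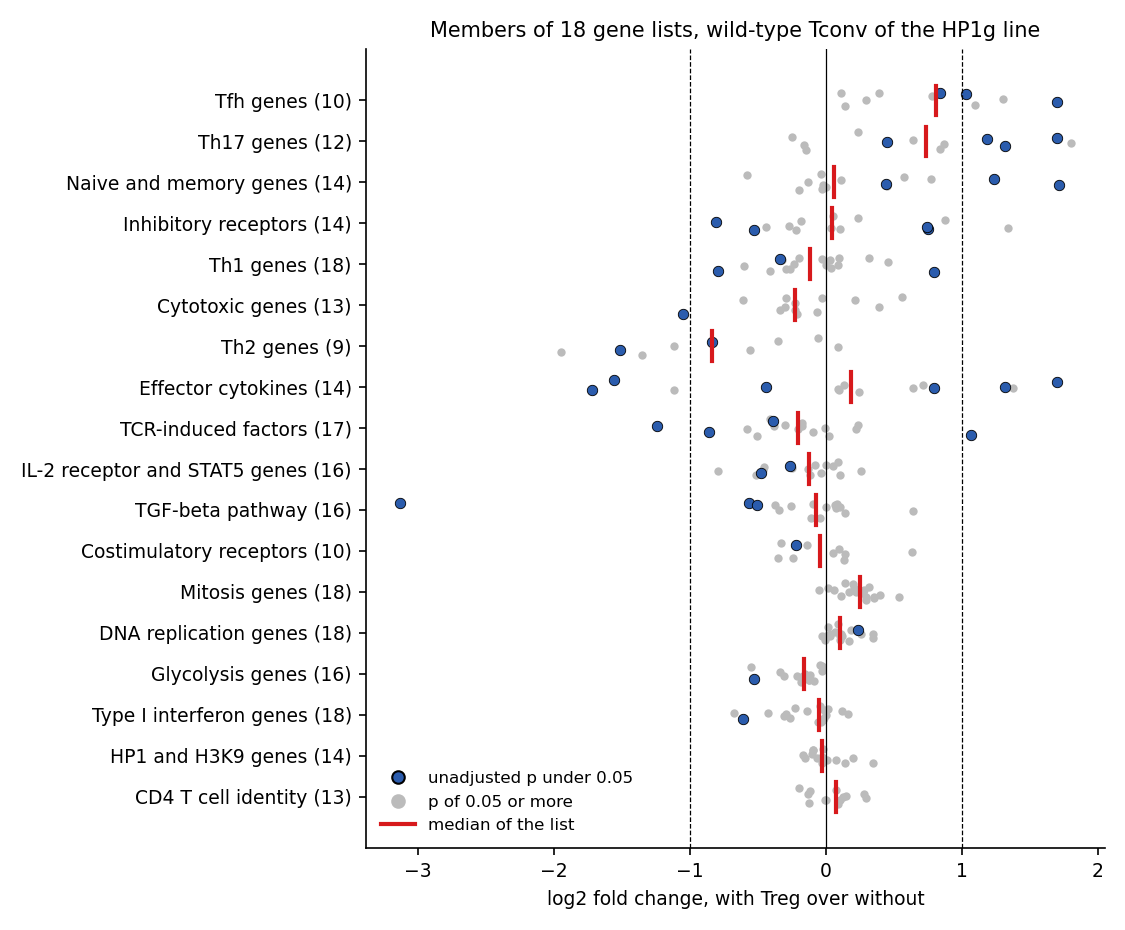
Log2 fold change with Treg over without (horizontal axis) of the members of 18 gene lists, with the number of members tested in brackets, members at an unadjusted p under 0.05 in blue and the median of each list as a red line. Medians run from -0.84 (Th2 genes) to 0.81 (Tfh genes), and the CD4+ T cell identity and HP1 and H3K9 genes lie close to 0.

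Whether the Treg effect in HP1g WT Tconv differed from that in wild-type cells of the other line was tested directly, in 12 libraries. HP1a WT Tconv are the wild-type littermates of mice that lack HP1α. The groups compared share no library, but the line, its genetic background, its litters, its experiments and any difference in the Treg dose cannot be told apart. The effect differed in 267 of 17127 genes (1.56%), 147 of which had a more positive and 120 a more negative log2 fold change in the HP1g line. That count was 797 by DESeq2, and it was 103 to 172 without 1 of HP1a WT Tconv alone replicate 1 or 2, HP1g WT Tconv alone replicate 1, 2 or 3, or HP1g WT Tconv with Treg replicate 2 or 3. It was 75 without HP1a WT Tconv alone replicate 3 and 448 without HP1a WT Tconv with Treg replicate 3.

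Of the 117 genes named here 6 were chosen for their small p in this same difference. Of the other 111, 13 (11.7%, against 1.56% of all genes) differed between the lines, 3 with a more positive and 10 with a more negative effect in HP1g WT. Many of the 111 were chosen by their values in HP1g WT, which enter this difference, or from lists made with earlier results known. The 2 shares are therefore not comparable, and no enrichment can be read from them. In all 19 genes, the 6 and the 13 together, the absolute log2 fold change was above 1 in HP1a WT, and in 14 of them it was under 1 in HP1g WT. The 19 passed a threshold on the difference itself, so a sizeable effect in either line follows in part from that choice. Other measures moved with Treg in HP1a WT. The summed level of the CD8 T and NK cell markers was 23.4 to 24.5 CPM alone and 110 to 278 CPM with Treg there, against 27.0 to 44.8 and 15.97 to 68.3 CPM in HP1g WT. The summed level of the myeloid markers was 7.47 to 8.27 CPM alone and 22.5 to 60.1 CPM with Treg in HP1a WT. HP1a WT Tconv with Treg replicate 3 stood apart, with 3.84% mitochondrial counts, 9.34% of counts in its 10 most abundant genes and a median correlation of 0.940 with its group. The part of these measures in the difference was not tested. Without that library 18 of the 19 were called, all except Tigit (-1.61, adjusted p = 0.0541 by edgeR), and 448 genes were called in all. The 19 were taken from calls made with that library included. The CD8 T and NK cell sums were higher in each HP1a WT library with Treg, so leaving out 1 does not address them. Inhibitory receptors and Tox were among the genes that differed. Lag3 had a log2 fold change of 1.34 in HP1g WT and 6.14 in HP1a WT, a difference of -4.81 (adjusted p = 0.00933 by edgeR). Tox was at 1.07 and 4.07 (difference -3.002, adjusted p = 0.0173), and Ctla4 at 0.75 and 2.40 (difference -1.65, adjusted p = 0.0173). Tigit differed by -1.79 and Havcr2 by -3.28, with opposite signs in the lines for Havcr2. Pdcd1, at 0.87 and 3.27, did not pass the threshold (difference -2.40, adjusted p = 0.0674 by edgeR).

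Il21 had 25.3 ± 12.4 CPM with Treg and 7.80 ± 2.75 CPM alone in HP1g WT, and 223 and 3.56 CPM in HP1a WT (means, n = 3). The difference of the log2 fold changes was -4.27 (edgeR adjusted p = 0.0129). Bcl6 was at 0.12 and 2.56 (difference -2.44, edgeR adjusted p = 0.0272). By the naming rule Spp1 (-6.63), Eea1 (-2.60) and Hdac7 (-1.44) had the smallest p among genes with a more negative effect in HP1g WT. Spp1, which encodes osteopontin, was at 0.71 in HP1g WT and 7.35 in HP1a WT. Rai14 (3.61), Sgms1 (1.66) and the α1 integrin gene Itga1 (4.78) had the smallest p in the other direction. Itga1 was at -0.63 in HP1g WT and -5.41 in HP1a WT.

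The genotypes of the HP1g line were compared in the same way, in 11 libraries. Replicate 3 of HP1γ-deficient Tconv with Treg was not used. No gene of 17833 passed the test by edgeR (0%), 667 did at an unadjusted p under 0.05, DESeq2 called 16, and the smallest edgeR adjusted p was 0.0530. That value belonged to Trav6d-7, whose transcript is identical to that of Trav6n-7, and the next smallest was 0.999956 (Bcl6). Without HP1γ-deficient Tconv with Treg replicate 2, edgeR called 53, and it called 1 each without replicate 1 of that group (Trav6d-7) and without HP1γ-deficient Tconv alone replicate 2 (Gm12896). For Ctla4 the log2 fold change was 0.75 in WT and 1.27 in KO, for Tox 1.07 and 2.24, for Gzma -1.05 and -2.85, and for Pcsk1 1.85 and 2.43. The median half-width of the confidence interval of the difference between genotypes was 0.91 on the log2 scale, so that smaller differences were not resolved with these libraries.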

How the data were processed

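RNA of sorted cells was amplified with a SMART-Seq kit and sequenced. The authors processed reads with nf-core/rnaseq (STAR and Salmon, GRCm39 with Ensembl annotation) and deposited a table of estimated counts for 56748 genes in 36 libraries, 12 groups of 3, in which 82.9% of values were whole. Salmon divides reads between similar transcripts by probability, so that genes of identical sequence are uncertain.

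Estimated counts were rounded and tested in R 4.3.3 with edgeR 4.0.16 (filterByExpr, TMM, robust quasi-likelihood test) on the libraries of each comparison, with Benjamini-Hochberg adjustment over all genes tested. Calls needed an adjusted p under 0.05 and an absolute log2 fold change above 1. Levels are CPM with TMM factors over 35 libraries. HP1γ-deficient Tconv with Treg replicate 3 was left out, as the study did for its quality. Standard errors were derived from the fold change and its F statistic. The line and genotype differences are interaction terms. The scripts were tested on simulated counts. Floors of 3 counts cover counting error only.

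Deviations of same-numbered libraries from their group means correlated at 0.478, 0.164 and 0.260, at most a hint of pairs. Replicate 3 with Treg and replicate 2 alone correlated at 0.172, and replicate 2 with Treg and replicate 3 alone at 0.155. Numbers 2 and 3 were thus not clearly paired. The main test was unpaired, and the replicate number as a block was an alternative. The study names DESeq2 and gives no model formula.

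The members and lists were chosen with earlier results of these data known. Genes named were those called, the 8 with the smallest p in each direction (mean of at least 5 CPM, no overlap, absolute log2 fold change above 1, without receptor segments, predicted genes, RIKEN clones and pseudogenes), the 21 the study names, the extremes and smallest p of each list, the 3 with the smallest p in each direction per interaction, and the Trav6 segments. Cd4, Trdc, Scart1, Cd79a and list members named only for an unadjusted p under 0.05 were added after their values were seen. Alternatives were DESeq2 1.42.0, RLE size factors, no filter, no fold threshold, the replicate block, each library left out, other sets of libraries in the fit, and, chosen after seeing the data, summing genes of identical transcripts. One of the genes the study names is not reported here. Figures used matplotlib 3.10.9.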

Additional observations from a re-analysis of the deposited data

Results flagged for a closer look

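The test of the difference between the lines singled out 267 genes whose Treg effect in wild-type Tconv was not the same in the HP1g and the HP1a line, and 19 of the genes named in the report are among them. All values here are differences of log2 fold changes, HP1g WT minus HP1a WT, from edgeR. The more negative effects in HP1g WT were those of Ccl3 (-6.63), Spp1 (-6.63), Ptpn5 (-5.37), Lag3 (-4.81), Lpar3 (-4.59), Il21 (-4.27), Havcr2 (-3.28), Tox (-3.002), Eea1 (-2.60), Bcl6 (-2.44), Tigit (-1.79), Ctla4 (-1.65) and Hdac7 (-1.44). The more positive effects were those of Rora (1.54), Sgms1 (1.66), Slc2a3 (2.38), Ly6c2 (2.64), Rai14 (3.61) and Itga1 (4.78). Line, genetic background, litters, experiments and any difference in the Treg dose cannot be told apart in this difference. Without 1 library the count ran from 75 to 448, the latter without HP1a WT Tconv with Treg replicate 3. No formal test for single outlying samples was made in groups of 3.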

How the results depend on the processing

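For the Treg effect in HP1g WT Tconv, 2 genes were called by edgeR, 42 by DESeq2, 6 without a filter on low counts, 1 with all libraries of the HP1g line in the fit (Trav6d-7), 0 with the wild-type libraries of both lines in the fit, 1 with identical transcripts summed (Scart2) and 0 with the replicate block. Leaving out 1 library gave 0 to 2. RLE size factors and no fold threshold each gave 2. The difference between lines was called for 267 genes, 797 by DESeq2, and 75 to 448 without 1 library. The difference between genotypes was called for 0 genes by edgeR, 667 having an unadjusted p under 0.05, for 16 by DESeq2, 1 without a filter and 0 to 53 without 1 library. The replicate block gave 237 genes for the line difference and 0 for the genotype difference. The cause of these changes was not tested.

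Of the 117 named genes 85 kept the sign of their log2 fold change in all 13 settings, and in 82 leaving out 1 library moved the value by over 1.5 times or turned its sign. With the replicate block the sign turned for Foxp3 (0.10), Ngp (2.10) and Trav6-5 (-0.30), and with identical transcripts summed for Trav6n-7 (-0.40). Leaving out 1 library turned the sign for the genes that follow, none of which was called. The ranges were -0.15 to 0.43 for Tigit, -0.048 to 0.28 for Ifng, -0.15 to 0.48 for Il2, -0.057 to 0.42 for Tnf, -0.67 to 0.58 for Foxp3, -0.34 to 0.047 for Cd69, -0.22 to 0.0087 for Cbx3 and -0.33 to 0.15 for Cbx5. They were -0.51 to 0.27 for Il1r1, -0.069 to 0.24 for Ccr8, -0.43 to 1.18 for Ccl3, -0.069 to 2.55 for Itgb8, -0.14 to 1.30 for Ltbp3, -0.22 to 0.24 for Rrm1, -0.078 to 0.92 for Cenpf, -0.46 to 0.84 for Ccnb2, -0.061 to 0.024 for Pgam1 and -0.20 to 0.59 for Tet1. Among markers of other cells they were -0.69 to 0.88 for Eomes, -0.33 to 0.26 for Cd79b, -0.21 to 1.66 for Adgre1, -1.47 to 4.26 for Ngp, -0.62 to 0.18 for Itgam and -4.60 to 4.18 for Car1. Among Trav6 segments they were -1.62 to 0.036 for Trav6d-3, -0.62 to 1.87 for Trav6-6, -1.01 to 0.65 for Trav6-2, -1.29 to 0.11 for Trav6-7-dv9, -1.10 to 0.20 for Trav6-4, -0.80 to 0.41 for Trav6d-5 and -1.24 to 0.60 for Trav6-5.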
